A study of Xenopus laevis with 12 samples.

Results

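The genes described here are those of the cellular response to low oxygen, with the enzymes of glycolysis left out. They were chosen by symbol from a list of 30 genes: the subunits of the hypoxia-inducible factors (HIF), the proteins that sense oxygen and mark HIF for destruction, and genes known as HIF targets in vertebrates. *Xenopus laevis* has a duplicated genome and carries many genes as a pair of homeologs, marked .L and .S. A row was found for 28 of the 30 genes in the deposited counts, and these gave 51 rows (kdm4b and ero1a had no matching row and were not analysed here). Of the 51 copies, 47 reached 1.8 CPM (a gene's count as a share of its library's total, in units of 1e-06) in 3 or more libraries. These 47 copies of 25 genes are described below, among 21731 genes kept by the same filter of 42638 in the table. Both homeologs were kept for 22 of the genes.

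In well-oxygenated cells, prolyl hydroxylases (egln1, egln2 and egln3) use oxygen to hydroxylate the alpha subunits of HIF (hif1a and epas1), vhl then binds them as part of a ubiquitin ligase, and the proteasome destroys them. Hif1an, an asparagine hydroxylase, blocks the activity of the remaining subunits. When oxygen is scarce the alpha subunits persist, pair with arnt and switch on target genes, among them egln3 itself, so that HIF is controlled mainly through protein stability and less through the level of its own mRNA. Several targets also respond to other stresses: ddit4, for example, is induced by glucocorticoids and endoplasmic reticulum stress in mammals.

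The data are RNA-seq libraries of whole wild-type embryos at Nieuwkoop and Faber stage 25, 12 libraries in 4 groups of 3. Embryos were kept in small groups (100 embryos) or large groups (300 embryos), with medium and dish scaled to the number of animals, and were either left untreated or exposed to thioridazine, a dopamine receptor antagonist, at 90 µM from stage 12.5 to stage 25. All were in dilute Ringer's solution (0.1x MMR), at 14 °C before the exposure and at 18 °C during it, controls included. A figure legend of the study gives another concentration and slightly other stages. Each library was made from 15 pooled embryos, and the study's methods describe embryos pooled over mothers and divided at random, with experiments repeated on separate occasions. The study's results section instead states that the embryos of an experiment shared a clutch. No source used here ties a library or its replicate number to a clutch or an occasion, so p-values cover the spread among these samples, of which the technical part is not known. The question behind the design was whether gene expression differs between small and large groups and whether thioridazine alters it differently in them. The total estimated count was 3550845 to 6540861 per library in untreated small groups, 5496905 to 7222013 in untreated large groups, 3639288 to 7822395 in thioridazine-treated small groups and 3497198 to 7379636 in thioridazine-treated large groups. All of the lists of tissue markers checked (muscle, neural, notochord, epidermis, cement gland, endoderm, pronephros and neural crest) were detected in every group. Libraries that carry the same replicate number varied together (correlation of deviations from the group means 0.282 to 0.769 over 18 pairs). Each comparison is given from a fit of the group means (the main fit), which leaves this pairing out. Calls, most counts and the values of some copies are also given from a fit that adds the replicate number as a term (the replicate block). Standard errors with the block were smaller for many copies. Same-numbered libraries are called number-matched pairs below. The matching is less certain for numbers 2 and 3, which differed from each other in 2.44% of all genes.

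In the main fit, no copy of the 47 passed an adjusted p of 0.05 (edgeR quasi-likelihood test, Benjamini-Hochberg adjustment over all 21731 genes) in any comparison, and the adjusted p of every copy was 1. The share of all genes that passed was 0% for large against small groups in untreated embryos, 0% in treated embryos and 0% averaged over treatments, 0.0092% for thioridazine against untreated in small groups and 0.0092% in large groups, 0.0874% averaged over group sizes, and 0% for the interaction (the group-size response with thioridazine minus that without). With the replicate block the corresponding shares of all genes were 0%, 0%, 0%, 0.179%, 0.258%, 0.433% and 0%. Copies of the hypoxia genes then passed in 2 comparisons: *egln3.L* and *higd1a.S* for thioridazine in large groups (2 of 47) and *higd1a.S* for thioridazine averaged over group sizes (1 of 47). Without the block, DESeq2 and limma voom passed 0 of the 47 in every comparison. With 2 surrogate variables limma voom passed *egln3.L* and *higd1a.S* for thioridazine in large groups, where 0.221% of all genes passed. For thioridazine averaged over group sizes it passed both copies of *higd1a*, where 0.584% of all genes passed. All other differences of single copies given below are values that did not pass this threshold, on the log2 scale with standard errors (SE) from the main fit unless the block is named; a log2 fold change of 1 is a 2-fold difference. Where groups are said not to overlap, the share of all genes that do so is not given. Many of these copies were named for their small p, so separation carries little weight by itself. RNA came from whole embryos, so fewer cells that express a gene and less RNA per cell cannot be told apart.

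Of the HIF subunits, *hif1a.L* differed little between groups and *epas1.L* differed more, and no copy passed the threshold in either fit. *hif1a.L*, the main oxygen-regulated alpha subunit, was at 85.5, 95.1 and 101 CPM in libraries 1, 2 and 3 of the untreated small groups, 73.9, 108 and 97.9 in untreated large groups, 74.9, 106 and 93.8 in treated small groups and 91.3, 108 and 76.7 in treated large groups. The 4 groups overlapped throughout, and the log2 fold changes were -0.01 (SE 0.20) for group size without and 0.01 (SE 0.20) with thioridazine, and -0.04 (SE 0.20) and -0.02 (SE 0.20) for thioridazine in small and large groups. The other alpha subunit, *epas1*, is best known from vessels and blood-forming tissue. Its .L copy was at 26.3, 14.4 and 14.3 CPM in untreated small groups, 39.2, 26.2 and 22.7 in untreated large, 37.3, 22.6 and 19.2 in treated small and 48.1, 21.6 and 20.9 in treated large groups. The untreated small group held the lowest library of each replicate number. The ranges of the groups overlapped, and library 1 was the highest in every group. For 300 against 100 untreated embryos the log2 fold change of *epas1.L* was 0.66 (SE 0.39), higher in 3 of 3 number-matched pairs, and 0.70 (SE 0.16) with the replicate block (edgeR adjusted p = 0.414). In small groups thioridazine gave 0.51 (SE 0.39), again in 3 of 3 pairs, and in large groups 0.04 (SE 0.38). *epas1.S* was likewise lowest in the untreated small groups, with 0.29 (SE 0.23) for group size in untreated embryos and 0.35 (SE 0.23) for thioridazine in small groups. Of the partner subunit *arnt*, *arnt.S* was at 34.5 to 51.3 CPM over all libraries and, like *epas1*, higher in the large group of 3 of 3 untreated pairs, with 0.20 (SE 0.17) for group size in untreated embryos and -0.16 (SE 0.17) for thioridazine in large groups, and *arnt.L* was at 2.68 to 6.12 CPM, with -0.20 (SE 0.34) and -0.07 (SE 0.34).

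Among the proteins that shut HIF off, *vhl.L* was lowest in untreated large groups and *hif1an.L* in treated large groups. *vhl.L*, a copy of the ubiquitin ligase subunit, was at 2.93, 3.76 and 3.43 CPM in untreated small groups, 1.72, 1.96 and 2.32 in untreated large, 2.42, 2.89 and 3.25 in treated small and 3.11, 2.28 and 1.82 in treated large groups. The untreated large group lay below both small groups without overlap, narrowly for the treated small one (2.32 against 2.42 CPM), and overlapped the treated large group. The log2 fold change of untreated large against untreated small groups was -0.74 (SE 0.36). At 1.72 to 3.76 CPM *vhl.L* rests on few reads. For *vhl.S*, at 4.97 to 10 CPM, the same comparison gave -0.19 (SE 0.32). *hif1an.L* was at 15.9, 17.3 and 17.1 CPM in untreated small, 17.8, 19.4 and 16.4 in untreated large, 16.5, 19.4 and 11.5 in treated small and 13.4, 14.0 and 10.9 in treated large groups. All treated large libraries lay below all untreated libraries of either size, and thioridazine in large groups gave -0.48 (SE 0.21). The .S copy of *hif1an* was lower in the treated member of all 6 number-matched pairs and in the large group of all 6. Of all genes, 1.21% and 1.36% were. Its averages were -0.20 (SE 0.18) for thioridazine and -0.22 (SE 0.18) for group size, and -0.19 (SE 0.10) and -0.23 (SE 0.10) with the replicate block. Its library 1 was the lowest of each group, at 30.7, 24.2, 29.9 and 22.8 CPM, against 29.7 to 44.0 in libraries 2 and 3.

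The prolyl hydroxylases held 1 of the copies that passed. *egln3*, the family member known for its strong induction by HIF, was at 33.2, 29.8 and 43.1 CPM (.L copy) in untreated small groups, 18.3, 27.7 and 24.8 in untreated large, 19.5, 31.4 and 42.5 in treated small and 37.0, 48.6 and 59.1 in treated large groups. The untreated large group lay below the untreated small group without overlap, and the treated large group lay above the untreated large group without overlap. The treated small group overlapped all others. In large groups thioridazine raised *egln3.L* 2.02-fold in the fit with the replicate block (log2 1.02 (SE 0.18), edgeR adjusted p = 0.0252, higher in 3 of 3 pairs), and the main fit gave 1.03 (SE 0.29). When each library was left out in turn from the fit with the block, the call held in 4 of 12 runs, with adjusted p from 0.00389 to 0.223. It was lost without any of the 3 untreated large or the 3 treated large libraries, and without library 3 of the untreated small or library 2 of the treated small groups. In small groups the same contrast was -0.19 (SE 0.29). Large groups were lower than small groups in 3 of 3 untreated pairs (-0.58 (SE 0.29)) and higher in 3 of 3 treated pairs (0.64 (SE 0.29)), and the difference between these responses was 1.22 (SE 0.41) (replicate block 1.27 (SE 0.26), edgeR adjusted p = 0.724). *egln3.S*, at 3.58, 8.13 and 9.46 CPM in untreated large and 8.17, 12.1 and 17.9 in treated large groups, gave 0.84 (SE 0.45) for thioridazine in large groups, with library 1 the lowest of 3 in 3 of the 4 groups.

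**Figure D1:**
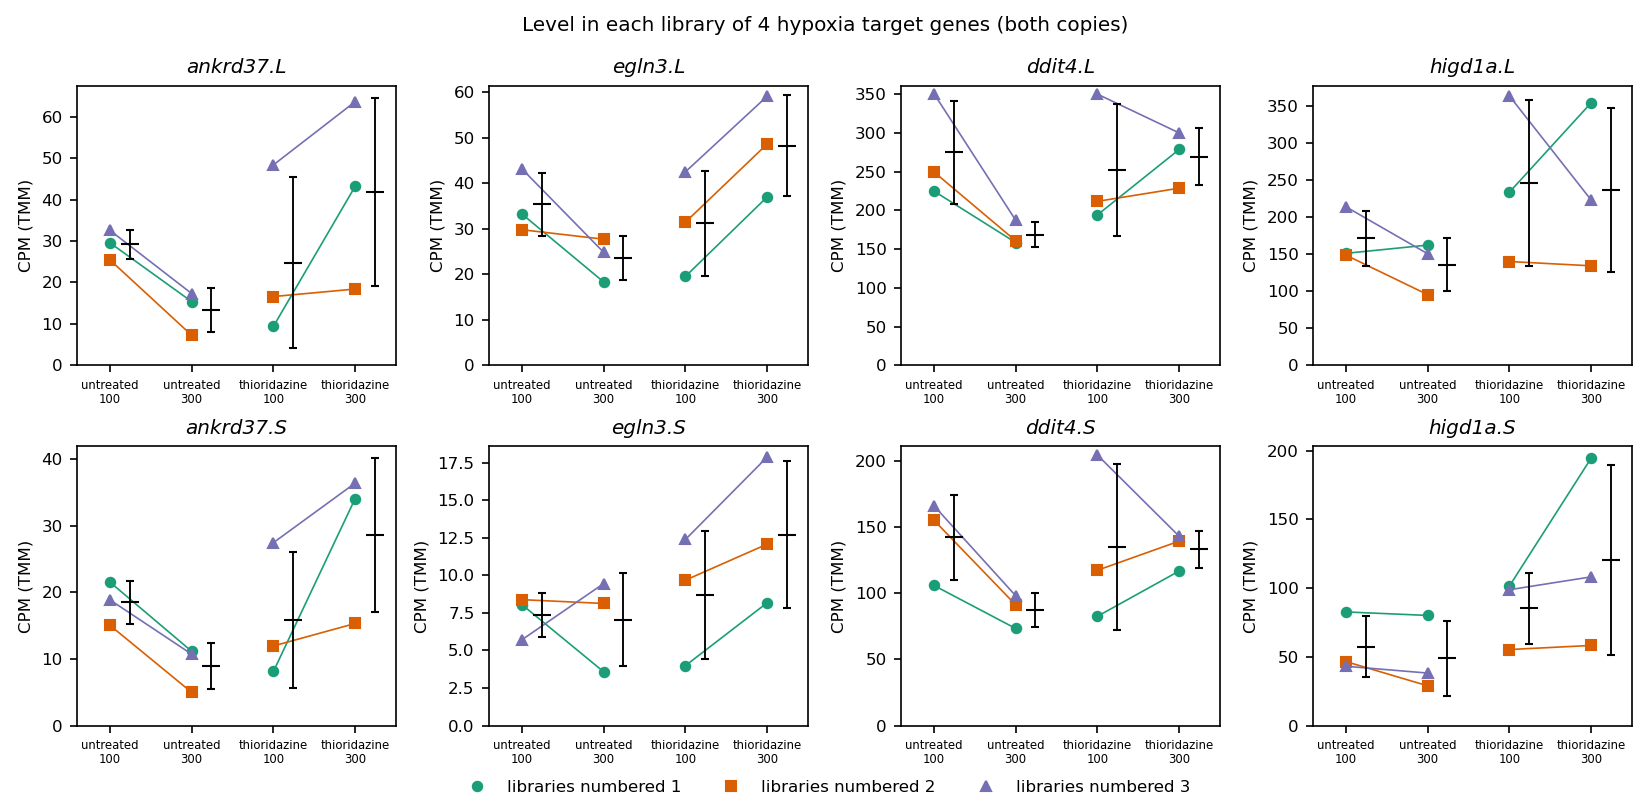
Level (CPM with TMM scaling, linear axis from 0) of both copies of ankrd37, egln3, ddit4 and higd1a in each library of the 4 groups. Points joined by a line are libraries of the same number and treatment, and the black bars beside them are the mean and SD of 3 libraries. In untreated embryos the 3 lines of ankrd37.L, ankrd37.S, egln3.L, ddit4.L, ddit4.S and higd1a.S all run down from 100 to 300 embryos, and in treated embryos the 3 lines of ankrd37.L, ankrd37.S, egln3.L, egln3.S and higd1a.S all run up.

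The other prolyl hydroxylases had their highest mean level in the treated large groups. *egln1.S*, the main enzyme that controls HIF in mammals under normal oxygen, was at 7.61, 4.91 and 6.28 CPM in untreated small, 7.68, 3.91 and 3.75 in untreated large, 7.69, 4.40 and 3.54 in treated small and 13.4, 5.37 and 6.67 in treated large groups. Each treated large library exceeded the libraries of its number in the other 3 groups, and thioridazine in large groups gave 0.72 (SE 0.43). With the replicate block this contrast was 0.70 (SE 0.23), edgeR adjusted p = 0.463. *egln2.L* was at 29.9, 25.4 and 31.7 CPM in untreated small, 33.2, 29.1 and 23.4 in untreated large, 28.3, 29.7 and 31.6 in treated small and 33.9, 35.0 and 37.3 in treated large groups. The 3 treated large libraries were above the other 9, by a small margin, and the 2 contrasts that involve them were 0.25 (SE 0.17) for group size with thioridazine and 0.31 (SE 0.17) for thioridazine in large groups. *egln2.S* gave 0.54 (SE 0.25) and 0.47 (SE 0.25) for these contrasts, and its treated large libraries (13.2, 17.5 and 17.0 CPM) did not overlap the treated small ones (10.5, 10.7 and 11.5 CPM).

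The stress and growth regulators *ankrd37* and *ddit4* had their lowest mean level in untreated large groups. *ankrd37*, an ankyrin repeat protein and a sensitive HIF target in human cells, was at 29.6, 25.4 and 32.6 CPM (.L copy) in untreated small groups, 15.4, 7.22 and 17.3 in untreated large, 9.40, 16.6 and 48.4 in treated small and 43.2, 18.4 and 63.7 in treated large groups. Its .S copy was at 21.5, 15.0 and 18.9, 11.1, 4.97 and 10.7, 8.12, 11.9 and 27.4 and 34.1, 15.3 and 36.4 CPM in the same order. For both copies the untreated large group was below the untreated small group and below the treated large group without overlap, while the treated small libraries ran from below the untreated large mean to above all untreated libraries. Thioridazine in large groups gave log2 fold changes of 1.64 (SE 0.57) for the .L and 1.67 (SE 0.47) for the .S copy, a 3.11-fold and 3.17-fold difference. With the replicate block the .S copy was just outside the threshold (log2 1.65 (SE 0.31), edgeR adjusted p = 0.0528). In untreated embryos 300 against 100 gave -1.14 (SE 0.57) and -1.05 (SE 0.47), lower in 3 of 3 pairs, and in treated embryos 0.78 (SE 0.56) and 0.88 (SE 0.46), higher in 3 of 3 pairs.

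*ddit4*, an inhibitor of the growth kinase complex mTORC1, had the smallest p of the 47 copies for group size in untreated embryos in the main fit. With the replicate block the smallest p was that of *epas1.L*, which was higher in large groups. *ddit4.L* was at 225, 249.7 and 351 CPM in untreated small groups, 158.5, 161 and 187 in untreated large, 194, 212 and 350.2 in treated small and 279, 229 and 300.1 in treated large groups. The 3 untreated large libraries were below each of the other 9. For 300 against 100 untreated embryos its log2 fold change was -0.70 (SE 0.25), 1.63-fold lower (replicate block -0.68 (SE 0.16), edgeR adjusted p = 0.414), and for thioridazine in large groups it was 0.67 (SE 0.25). These comparisons share the untreated large libraries and are not independent of each other. *ddit4.S*, at 106, 155 and 166 CPM in untreated small and 73.4, 91.2 and 98.1 in untreated large groups, gave -0.70 (SE 0.29) and 0.60 (SE 0.29). In treated embryos 300 against 100 gave 0.10 (SE 0.25) and -0.01 (SE 0.29) for the copies.

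Of the mitochondrial genes, *higd1a.S* rose with thioridazine in large groups and averaged over group sizes, in the fit with the replicate block. Higd1a is a small protein of the inner mitochondrial membrane that acts on respiratory complexes and is induced by HIF in mammals. *higd1a.S* was at 82.7, 46.5 and 43.1 CPM in untreated small groups, 80.1, 28.9 and 38.2 in untreated large, 101.5, 55.3 and 98.8 in treated small and 195, 58.3 and 108 in treated large groups. The groups overlapped, and library 1 was the highest in every group, but all 6 number-matched pairs were higher with thioridazine. This held for 1 of the 47 copies (2.13%) and for 2.64% of all genes. Averaged over group sizes thioridazine raised *higd1a.S* 1.9-fold in the fit with the replicate block (log2 0.93 (SE 0.15), edgeR adjusted p = 0.00854), and in large groups 2.41-fold (log2 1.27 (SE 0.21), edgeR adjusted p = 0.0176). The main fit gave 0.92 (SE 0.34) and 1.29 (SE 0.48). In small groups alone the difference did not pass in any of 34 settings (replicate block 0.58 (SE 0.21), edgeR adjusted p = 1), with a lowest adjusted p of 0.391, in limma voom with surrogate variables. The averaged call held in 10 of 12 runs that each left out 1 library, with adjusted p from 0.00273 to 0.0575, and was lost without library 3 of the untreated small or library 2 of the untreated large groups. The call in large groups held in 8 of 12 runs (0.00809 to 0.177) and was lost without library 2 or 3 of the untreated large or library 1 or 3 of the treated large groups.

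*higd1a.L* was at 151, 149 and 214 CPM in untreated small, 162, 95.4 and 151 in untreated large, 234, 140.2 and 364 in treated small and 355, 134 and 223 in treated large groups, higher with thioridazine in 5 of 6 pairs, and its average was 0.66 (SE 0.27). The exception was library 2 of the small groups. Of *bnip3*, a receptor that directs mitochondria to autophagy, the .L copy had its highest mean in the treated large groups, at 82.1, 79.4 and 70.3 CPM there against 57.7, 57.2 and 63.7 in treated small, 55.5, 66.2 and 53.5 in untreated large and 75.7, 48.6 and 60.0 in untreated small groups. The treated large libraries did not overlap the treated small or untreated large ones, and library 1 of the untreated small groups lay above the lowest of them. The contrasts were 0.38 (SE 0.18) for group size with thioridazine and 0.40 (SE 0.18) for thioridazine in large groups, and *bnip3.S* gave 0.33 (SE 0.41) and 0.65 (SE 0.42). For thioridazine in large groups DESeq2 with the replicate block gave *bnip3.S* 0.615 (SE 0.171), DESeq2 adjusted p = 0.07. *bnip3l*, its relative, and *pdk1*, a kinase that holds pyruvate back from the mitochondrial citric acid cycle, lay between -0.07 and 0.32 for thioridazine in large groups over their 4 copies.

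Signals to other cells and transport were mixed. Of *vegfa*, the growth factor that recruits blood vessels, *vegfa.L* was at 19.2, 18.8 and 24.0 CPM in untreated small, 18.0, 12.3 and 16.9 in untreated large, 15.8, 12.3 and 22.7 in treated small and 19.3, 14.5 and 18.2 in treated large groups. It was lower in untreated large than untreated small groups in 3 of 3 pairs (-0.39 (SE 0.25)) and lower with thioridazine in 3 of 3 small pairs (-0.30 (SE 0.25)), but higher with it in 3 of 3 large pairs (0.13 (SE 0.25)). *vegfa.S* was lower in the large group of all 6 pairs, where 1.36% of all genes were. It gave -0.52 (SE 0.24) averaged over treatments, and at 1.82 to 5.71 CPM it rests on few reads. The glucose transporter *slc2a1* was higher with thioridazine in 3 of 3 large pairs for both copies (0.33 (SE 0.29) and 0.62 (SE 0.39)). Library 1 was the highest of its group for both copies in all 4 groups.

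Of the copies left out by the filter, both of the vasodilator peptide gene *adm* had few reads (15 and 6 counts in total over the 12 libraries), and *adm.L* was at 0 in 5 libraries and at most 0.971 CPM. *ca9.L*, a carbonic anhydrase and a widely used hypoxia marker in mammalian tumours, had 17 counts and at most 0.692 CPM. *slc2a3.L*, a glucose transporter, had 49 counts, and its highest library, at 2.9 CPM, was library 1 of the untreated small groups. At these depths a difference between groups was not detectable for these 4 copies.

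The transcription repressors among the targets did not share a direction. *bhlhe40*, a repressor of the circadian clock, was higher with thioridazine in small groups in 3 of 3 pairs for both copies (0.76 (SE 0.47) and 0.60 (SE 0.41)), whereas large groups gave 0.64 (SE 0.45) and -0.37 (SE 0.40). At 1.61 to 13.6 CPM these are low counts. *mxi1*, an antagonist of Myc, was at 63.5, 58.7 and 75.1 CPM (.L copy) in untreated small, 44.5, 49.4 and 58.7 in untreated large, 32.0, 54.3 and 70.8 in treated small and 57.4, 64.9 and 70.3 in treated large groups. Thioridazine gave -0.34 (SE 0.25) in small and 0.34 (SE 0.25) in large groups, and library 1 of the treated small groups was the lowest of the 12. *mxi1.S* gave -0.18 (SE 0.48) and -0.43 (SE 0.47). *ndrg1*, a stress-responsive gene, had standard errors of 0.52 to 0.95 in the comparisons of group size and of thioridazine, and its difference with the replicate number is given below. Both copies were lower with thioridazine in 3 of 3 large pairs, where 18.5% of all genes were. They were also lower in the large group of 3 of 3 treated pairs, where 12.8% of all genes were. DESeq2 with the replicate block gave -0.48 (SE 0.32) and -0.65 (SE 0.32) for thioridazine in large groups. Untreated pairs and small pairs were mixed.

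The demethylase *kdm3a* and the hydroxylase *jmjd6*, which like egln need oxygen as a substrate, were named after their values were seen. Their 4 copies were all above 0 for thioridazine in large groups, between 0.09 and 0.37, where 48.5% of all genes were. For group size with thioridazine they were also all above 0, between 0.15 and 0.24, where 48.9% of all genes were. None of them passed the threshold in either fit. Without thioridazine the 4 copies were split, 2 above and 2 below 0 for group size.

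The collagen hydroxylases had fitted values below 0 for group size in untreated embryos and above 0 for thioridazine in large groups in each of their 7 copies. By number-matched pair, 3 of the 7 (*p4ha1.L*, *plod1.S* and *plod2.S*) were lower in 3 of 3 untreated pairs, where 12.1% of all genes were. With thioridazine 5 (all but the copies of *plod2*) were higher in 3 of 3 large pairs, where 16.6% of all genes were. *p4ha2*, *plod1* and *plod2* were named after their values were seen. *p4ha1* and *p4ha2* encode catalytic subunits of the enzyme that hydroxylates prolines of collagen, and *plod1* and *plod2* encode lysyl hydroxylases, all dependent on oxygen. All 7 fitted values were below 0 for 300 against 100 untreated embryos (median log2 fold change -0.43) and for thioridazine in small groups (-0.14). Of all genes, 52.4% and 48.7% were above 0 in these comparisons. All 7 were above 0 for 300 against 100 treated embryos (0.15) and for thioridazine in large groups (0.43), where 48.9% and 48.5% of all genes were. The interaction was then above 0 in all 7 (0.56) by its definition, given the opposite signs for group size. These comparisons reuse the same 4 groups and are not independent of each other. The pairs did not bear out the fall in small groups. No copy was lower with thioridazine in 3 of 3 small pairs, and *p4ha1.S*, *plod2.S* and both copies of *plod1* were higher in 2 of 3. None of the 7 passed the threshold in either fit, and copies of a gene share reads, so that they are not independent of each other. *p4ha1.L* was at 343, 221 and 243 CPM in untreated small groups, 202, 187 and 204 in untreated large, 249.9, 217 and 269 in treated small and 282, 249.8 and 264 in treated large groups. The 3 untreated large libraries were below each of the other 9, and the log2 fold changes were -0.45 (SE 0.19) against untreated small groups and 0.43 (SE 0.19) for thioridazine in large groups. *p4ha1.S* gave -0.12 (SE 0.34) and 0.20 (SE 0.34). For *p4ha2.L* library 1 was the highest in each group, at 149, 44.2 and 68.3 CPM in untreated small and 97.3, 47.7 and 49.2 in untreated large groups, and thioridazine in large groups gave 0.61 (SE 0.47) in the main fit and 0.61 (SE 0.16) with the replicate block (edgeR adjusted p = 0.236). The 2 copies of *plod2* had the reverse order of libraries, with library 1 the lowest of each group.

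**Figure D2:**
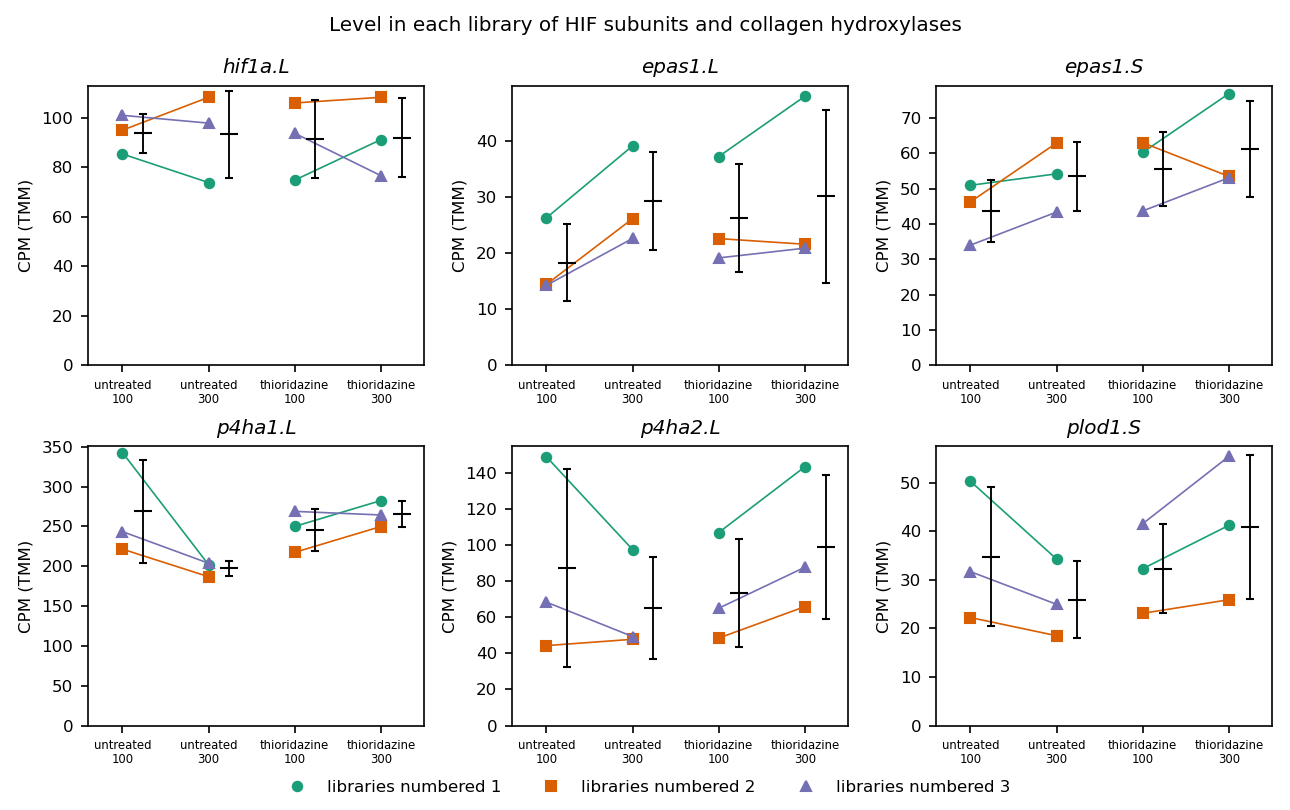
Level (CPM with TMM scaling, linear axis from 0) in each library of hif1a.L, both copies of epas1, and p4ha1.L, p4ha2.L and plod1.S. Points joined by a line are libraries of the same number and treatment, and black bars are the mean and SD of 3 libraries. hif1a.L overlaps in all groups (73.9 to 108 CPM), epas1.L runs up from 100 to 300 untreated embryos in 3 of 3 pairs, and the untreated large libraries of p4ha1.L (187 to 204 CPM) lie below all others.

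Over the 47 copies, the comparison of 300 with 100 untreated embryos had a median log2 fold change of -0.19, with 14 copies above 0, where the median of all 21731 genes was 0.02. By number-matched pair the median of the copies was -0.26, -0.04 and -0.25. In 3 of 3 pairs 17 of 47 copies were lower (36.2%) and 3 were higher, where 12.1% of all genes were lower and 12.3% higher in 3 of 3. At an unadjusted p under 0.05 the main fit counted 4 of 47 (*ddit4.L*, *p4ha1.L*, *ddit4.S* and *ankrd37.S*, all lower; 1.76% of all genes in either direction), and the replicate block counted 13 lower and 1 higher, where 4.9% of all genes were lower and 2.69% higher by this rule. Without library 1 of the untreated small groups the median was -0.006 (-0.138 with the block), without library 3 of the untreated large groups it was -0.122, and without library 3 of the untreated small groups, with the block, -0.117. The summed level of endoderm markers was 383 to 452 CPM in the untreated large groups against 548 to 709 in the untreated small groups, 414 to 657 in the treated small and 493 to 532 in the treated large groups, and that of pronephros markers was 74.1 to 147, 135 to 179, 89.1 to 173 and 105 to 161 in the same order. Neural crest markers ran the other way, at 192 to 257 CPM in the untreated large and 143 to 225 in the untreated small groups. The ranges of the muscle, neural, notochord, epidermis and cement gland markers overlapped between these groups. The part of any of these markers in the low values of the untreated large groups was not tested.

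In thioridazine-treated embryos the comparison of 300 with 100 had a median of 0.15 over the copies and -0.01 over all genes, with 34 of 47 above 0. Pair by pair the medians were 0.28, 0.15 and -0.001, the last in the pair of libraries numbered 3. The 3 pairs were all higher for 15 copies and all lower for 5, where 11.7% of all genes were higher and 12.8% lower in 3 of 3. The main fit counted 1 copy at an unadjusted p under 0.05 (*egln3.L*; 0.727% of all genes in either direction), and the block counted 7 higher and 1 lower, where 1.42% of all genes were higher and 1.56% lower. With each library left out in turn the median lay between 0.058 and 0.222, and the lowest value, with 27 of 47 copies above 0, was that without library 1 of the treated large groups. *egln2.S* and *bnip3.L* had the next smallest p among the higher copies. *vegfa.S* (-0.67 (SE 0.35)), *hif1an.L* (-0.31 (SE 0.21)) and *hif1an.S* (-0.32 (SE 0.26)) had the smallest p among the lower ones. With the replicate block *hif1an.S* gave -0.33 (SE 0.14), edgeR adjusted p = 0.999.

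**Figure D3:**
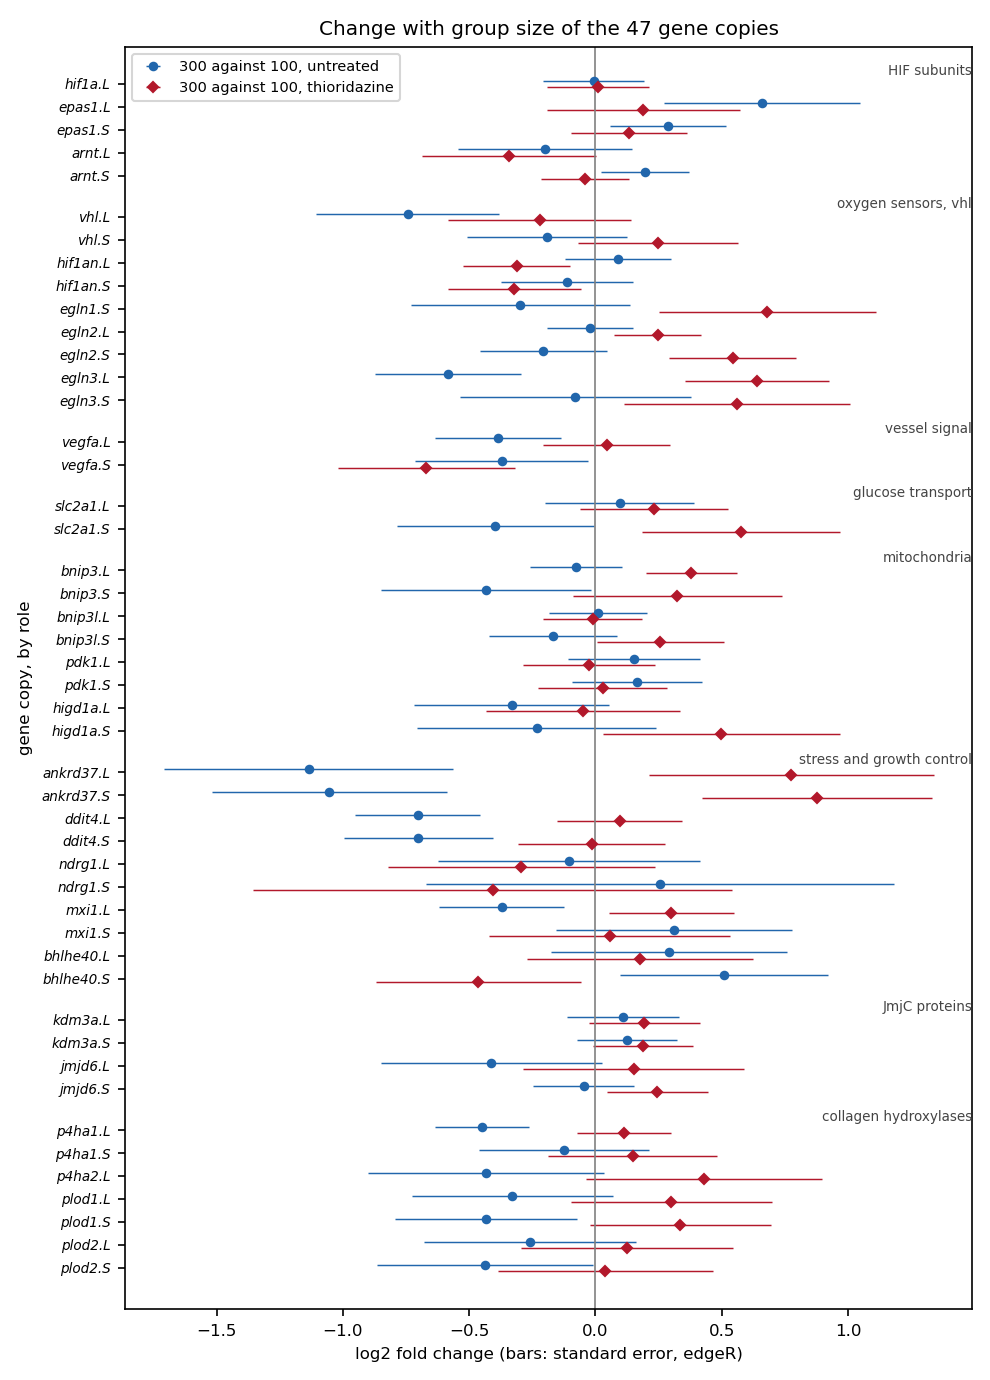
Log2 fold change of large (300) against small (100) groups for the 47 copies, ordered by role, in untreated embryos (blue circles) and thioridazine-treated embryos (red diamonds). Bars are standard errors of the edgeR fit. In untreated embryos 33 copies lie below 0 and in treated embryos 34 lie above 0, and no copy passed the adjusted threshold in either.

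In small groups thioridazine against untreated gave a median of -0.11 over the copies, with 17 of 47 above 0, and -0.005 over all genes. The medians by pair were -0.19, 0.08 and -0.002, and without library 1 of the untreated small groups the median was 0.062. It was -0.035 without library 3 of the untreated small groups, and -0.027 and -0.024 without library 1 or 2 of the treated small groups (0.004 without the former, with the block). For 8 copies all 3 pairs were lower and for 5 all 3 were higher, where 9.59% and 12.5% of all genes were. No copy was at an unadjusted p under 0.05 in the main fit (1.01% of all genes), and with the block 1 copy was lower at that level, *mxi1.L*, where 1.06% of all genes were, and 3 were higher, *epas1.L*, *epas1.S* and *higd1a.S*, where 2.34% of all genes were.

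In large groups thioridazine against untreated gave a median of 0.32 over the copies, with 35 of 47 above 0, and -0.01 over all genes. The 3 pairs had medians of 0.30, 0.26 and 0.26, and leaving out each library in turn, without and with the block, kept the median between 0.181 and 0.373, the lowest without library 1 of the treated large groups. All 3 pairs were higher for 25 of 47 copies (53.2%) and lower for 6, where 16.6% of all genes were higher and 18.5% lower. The main fit counted 8 copies at an unadjusted p under 0.05, 7 of them higher (1.93% of all genes in either direction), and the block counted 19 higher and 2 lower, where 4.26% of all genes were higher and 3.28% lower. In the main fit the smallest p belonged to *egln3.L*, *ankrd37.S* and *ankrd37.L* among the higher copies and to *hif1an.L*, *vegfa.S* and *hif1an.S* among the lower. With the block *higd1a.S* had the smallest p. This comparison shares its untreated large libraries with the comparison of group size in untreated embryos, so a low level in those 3 libraries enters each of them with opposite sign.

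**Figure D4:**
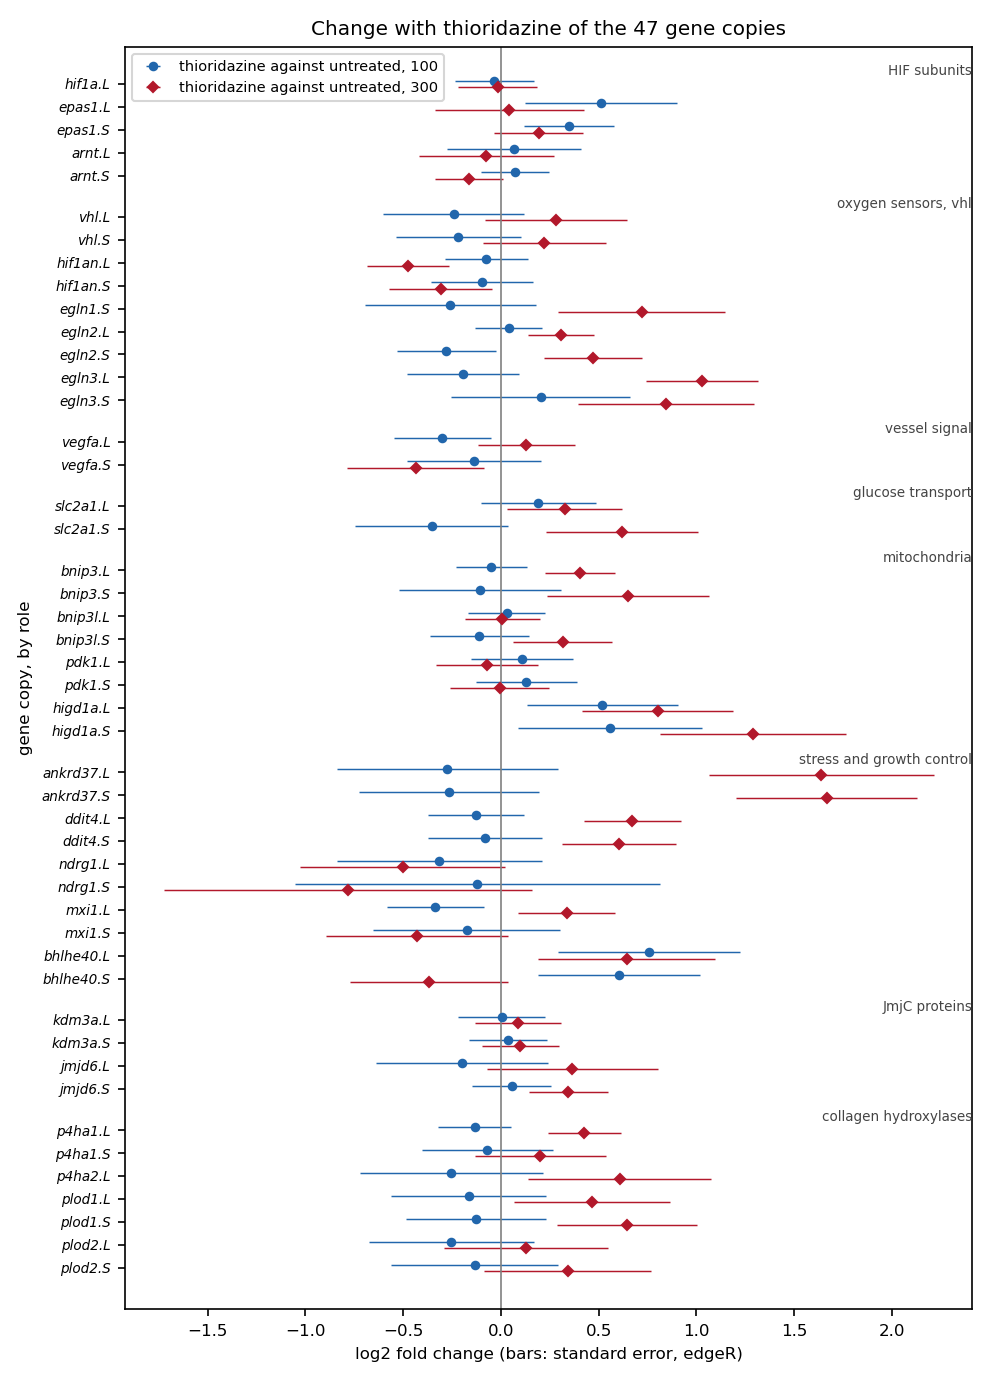
Log2 fold change of thioridazine-treated against untreated embryos for the 47 copies, ordered by role, in small groups (100, blue circles) and large groups (300, red diamonds). Bars are standard errors of the edgeR main fit. In small groups 17 copies lie above 0 and in large groups 35, with ankrd37.S (1.67) and ankrd37.L (1.64) farthest to the right.

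Averaged over group sizes, the median for thioridazine was 0.10 over the copies, with 36 above 0, and it lay between 0.036 (without library 1 of the treated large groups) and 0.178 (without library 1 of the untreated small groups) with each library left out. The copies of *higd1a* had the smallest p, followed by *bhlhe40.L* (0.70 (SE 0.33)), and the lower side was led by *hif1an.L* (-0.28 (SE 0.15)), *vegfa.S* (-0.29 (SE 0.24)) and *hif1an.S*. The median over all genes was -0.01. The main fit counted 2 copies at an unadjusted p under 0.05, where 1.69% of all genes were. With the block 11 copies were higher and 2 lower at that level, against 773 and 306 of all 21731 genes. Averaged over treatments, the median for group size was 0.002 with 24 of 47 above 0, and 0.005 over all genes. With the block 1 copy was higher and 4 were lower at an unadjusted p under 0.05, against 353 and 768 of all 21731 genes. In the main fit no copy was at that level, where 1.35% of all genes were. Here *epas1.L* (0.42 (SE 0.27)), *epas1.S* (0.21 (SE 0.16)) and *bnip3.L* (0.15 (SE 0.13)) led the higher and *vegfa.S*, *vhl.L* (-0.48 (SE 0.26)) and *ddit4.L* (-0.30 (SE 0.17)) the lower copies.

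The interaction compares the group-size response of treated with that of untreated embryos. Its median was 0.38 over the copies, with 32 of 47 above 0, and -0.01 over all genes. With each library left out in turn it lay between 0.221 and 0.504, and was 0.221 without library 1 of the treated large and 0.244 without library 1 of the untreated small groups. The largest values belonged to *ankrd37.S* (1.93 (SE 0.65)), *ankrd37.L* (1.91 (SE 0.80)) and *egln3.L* (1.22 (SE 0.41)), and the smallest p on the lower side to *bhlhe40.S* (-0.97 (SE 0.58)), *hif1an.L* (-0.40 (SE 0.30)) and *arnt.S* (-0.23 (SE 0.25)). In the main fit 4 copies were at an unadjusted p under 0.05, where 0.989% of all genes were, and with the block 15 were higher and 1 lower at that level, where 2.95% and 2.46% of all genes were. The difference was above 0 in all 3 replicate numbers for 22 copies and below 0 in all 3 for 6, where 13.8% and 16.3% of all genes were. For 5 copies (10.6%) the untreated pairs were lower in all 3 and the treated pairs higher in all 3: *egln3.L*, *ankrd37.L*, *ankrd37.S*, *plod1.S* and *higd1a.S*. Among all genes 1.21% had this pattern and 1.83% had its reverse, which no hypoxia copy had. These counts use 4 groups that share no library, but same-numbered libraries varied together across groups. The copies are not independent of each other either, and both copies of *ankrd37* are among the 5. No copy passed the adjusted threshold for the difference in either fit.

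The copies, like the genes at large, varied with the replicate number, whose meaning the labels do not give. Libraries numbered 1 differed from the mean of those numbered 2 and 3 (edgeR with group means and replicate number, adjusted p under 0.05) in 14 copies that were higher and 8 that were lower, 46.8% of the 47, where 40.8% of all genes differed, 22.8% higher and 18% lower, so that the share of the copies is near that of all genes. The higher copies included *ndrg1.S* (2.19 (SE 0.18)), *p4ha2.L* (1.07 (SE 0.11)), *bnip3.S* (0.94 (SE 0.10)), *epas1.L* (0.89 (SE 0.11)) and both copies of *slc2a1* and *plod1*. The lower ones included both copies of *plod2* (-1.01 (SE 0.15) and -1.02 (SE 0.15)), both copies of *egln3* and *ddit4.S*. *ndrg1.S* was at 26.9, 6.94 and 9.43 CPM in libraries 1, 2 and 3 of the untreated small groups and at 39.6, 3.46 and 9.63 in untreated large, 27.3, 6.66 and 6.20 in treated small and 21.4, 3.36 and 6.06 in treated large groups, so that library 1 was far above the others in all 4. Between libraries 2 and 3, *plod1.S* and *higd1a.L* differed past the threshold, both lower in library 2 (4.26% of the copies, where 2.44% of all genes differed).

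**Figure D5:**
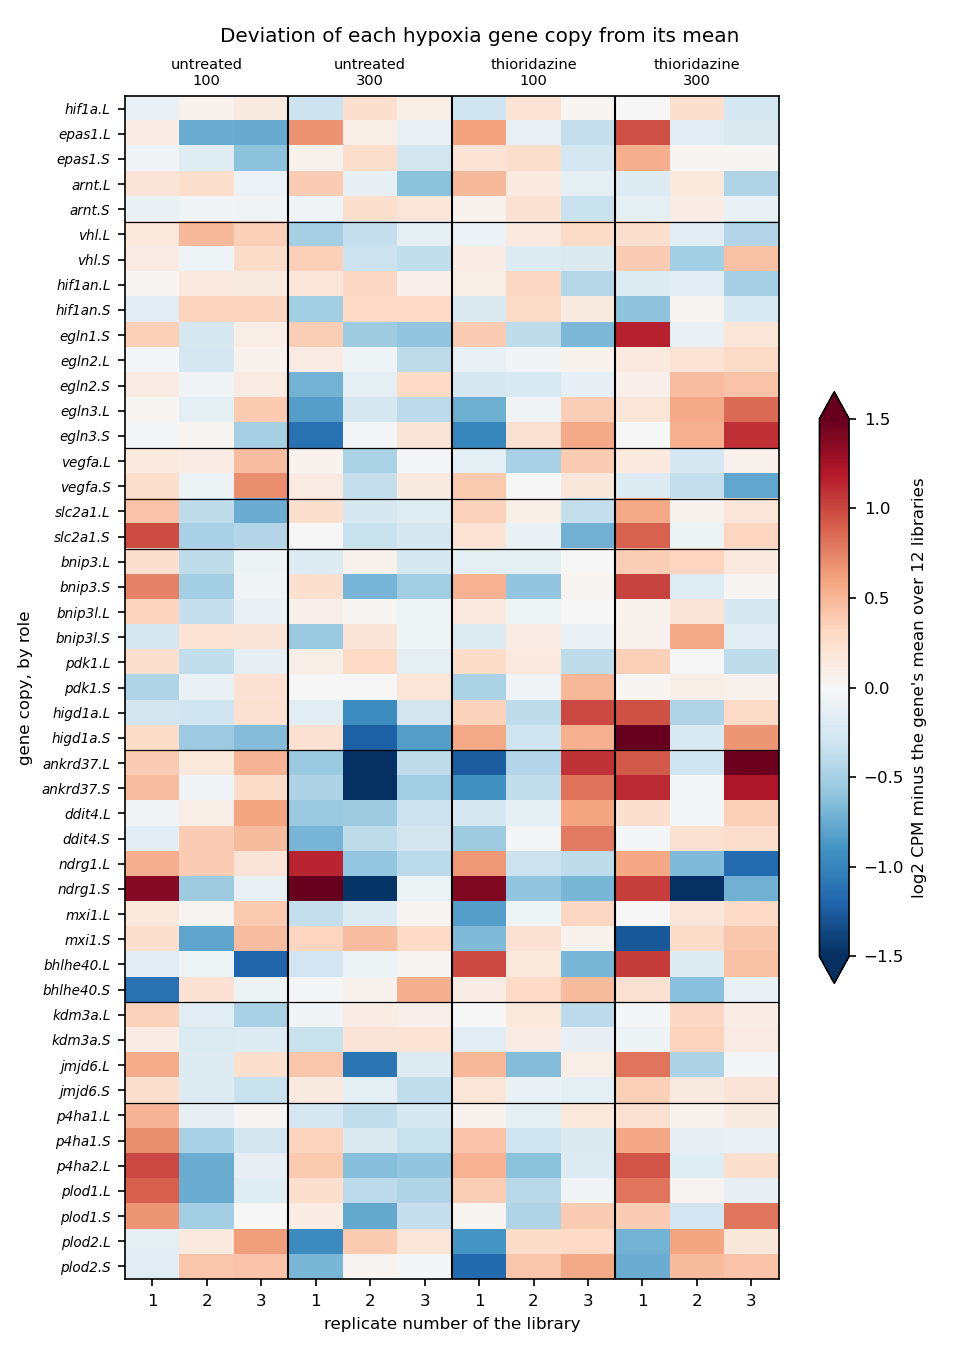
Deviation of each of the 47 copies (rows, by role) from its own mean over the 12 libraries (columns, by group and replicate number), in log2 CPM, with red above and blue below the mean and the colour scale ending at 1.5. The untreated large columns are blue and the treated large columns mostly red for egln3.L, ankrd37 and ddit4, and column 1 of each group stands apart for ndrg1.S, p4ha2.L and bnip3.S.

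Homeologs were compared by the sign of their fitted differences. Of the 22 genes with both copies kept, 19 had the same sign in both copies for thioridazine in large groups (86.4%) and 19 for the difference between responses (86.4%), where 68.3% and 64.5% of 5586 homeolog pairs over all genes did. For group size the figure was 16 of 22 (72.7%) against 66.9% in untreated embryos, and 14 of 22 (63.6%) against 66.9% averaged over treatments. The estimated counts divide a read that fits both copies between them, and 58.7% of the values of the 47 copies were not whole numbers. Over all 42638 rows it was 25.7%, but these include rows below the filter, and a count of 0 is whole. Both copies of *ankrd37*, *higd1a*, *mxi1* and *bhlhe40* had whole counts in all 12 libraries, as did *vhl.S* and *egln1.S*. The part of the counting in this likeness was not tested. With the copies of a gene summed, the median for thioridazine in large groups was 0.27 over the 25 genes.

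Other genes of the oxygen pathway were described for comparison, by counts only, from a list of partners of vhl and HIF and further reported targets. Of its 47 kept copies none passed the threshold in any comparison, in either fit. Their medians were -0.01 for group size in untreated embryos, 0.08 in treated embryos, -0.001 for thioridazine in small groups and 0.08 in large groups, with 29 of 47 above 0 in the last. The glycolysis enzymes (36 copies) had medians of 0.20, 0.14, -0.06 and -0.04 for the same comparisons, 0 of them past the threshold, and 16 of 36 above 0 for thioridazine in large groups. The blood and endothelium genes (22 copies) had 0.05, 0.05, -0.10 and -0.12, also with 0 past the threshold. The medians over the hypoxia copies (-0.19, 0.15, -0.11 and 0.32) were set beside these as descriptions, and the difference between lists was not tested.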

How the data were processed

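Total RNA of 12 whole-embryo samples was depleted of rRNA and sequenced as single-end reads from a stranded kit. After trimming with fastp, the authors aligned reads to rRNA (Bowtie2) and to the genome (STAR, two-pass), and deposited expected counts per gene estimated with RSEM, in which reads that fit several genes are divided between them. The methods name a version of the NCBI sequence for the rRNA alignment only, and for the genome build and tool versions these sources give none. The authors also deposited log2 CPM of 21720 genes after a filter, TMM and voom, used here only in an alternative. Stage 35 samples were not analysed here.

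After rounding of the expected counts, genes with 1.8 CPM or more in 3 or more libraries were kept and scaled by TMM. A quasi-likelihood model of 4 group means over all 12 libraries was fitted with edgeR 4.0.16 in R 4.3.3 (robust, Benjamini-Hochberg over all genes, threshold 0.05). A standard error is the log2 fold change divided by the root of F. The methods of the study use limma with 2 surrogate variables, which is an alternative here, and a batch adjustment whose batches are not given. The replicate numbers in the labels were taken as pairs because, for each of the 18 combinations of same-numbered libraries, deviations of log2 CPM (prior count 2) from the group mean correlated (0.282 to 0.769). Correlations between libraries of different numbers are not given beside these. Libraries numbered 1 differed from the others in 40.8% of all genes, and 2 from 3 in 2.44%. The matching of 2 with 2 and 3 with 3 is therefore less certain. Over 66 pairs of libraries the lowest chi-square per gene was 3.03, so none was counted as a duplicate.

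The members and lists were chosen with earlier results of these data known. Copies named are those of the HIF subunits, vhl, hif1an and the egln genes, those past the threshold in either fit, the 3 with the smallest p per direction and comparison, and their homeologs. p4ha2, plod1, plod2, slc2a1, ndrg1, pdk1, bnip3l, kdm3a and jmjd6 are named outside this rule, after their values were seen. RefSeq's Xenopus_laevis_v10.1 annotation, consulted for names alone, held all 51 symbols. The script was tested on simulated data. Alternatives were DESeq2 1.42.0, RLE, no filter, limma 3.58.1 voom without and with surrogate variables (sva 3.50.0), limma on the deposited log2 values, the replicate block, DESeq2 with the block, each library left out without and with the block, libraries 2 and 3 alone, and homeologs summed.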

Additional observations from a re-analysis of the deposited data

Results flagged for a closer look

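For 5 copies every untreated number-matched pair was lower in the large group and every thioridazine-treated pair was higher, and these are listed for that reason. The difference between the group-size responses, as log2 from the main fit, was 1.22 for *egln3.L*, 1.91 for *ankrd37.L*, 1.93 for *ankrd37.S*, 0.77 for *plod1.S* and 0.73 for *higd1a.S*. It was tested as an interaction, and the edgeR adjusted p over all genes was 1 for each in the main fit and 0.724, 0.859, 0.81, 0.895 and 0.895 with the replicate block. Of all genes, 1.21% had this pattern of pairs and 1.83% had the reverse. With the block and each library left out in turn, the interaction passed in 0 of 12 runs for *egln3.L*, *ankrd37.L* and *ankrd37.S*, with lowest adjusted p of 0.226, 0.259 and 0.226.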

How the results depend on the processing

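No result changed direction with a call attached to it. The number of the 47 copies past the threshold moved as follows. Shares of all genes that passed are in brackets. For thioridazine in large groups it was 2 with the replicate block (0.258%) and 2 with limma voom and surrogate variables (0.221%). DESeq2 with the replicate block gave 5 (0.428%), namely *egln3.L*, *higd1a.S*, *ddit4.L* and both copies of *ankrd37*. The replicate block in libraries 2 and 3 alone gave 4 (0.238%). Homeologs summed with the replicate block, an alternative added after the data were seen, gave 1, *egln3* (0.252%). With each library left out it was 0 to 4 (0% to 0.358%). For thioridazine averaged over group sizes it was 1 with the replicate block (0.433%) and 2 with limma voom and surrogate variables (0.584%). It was 1 with DESeq2 and the replicate block (0.552%) and 2 with the replicate block in libraries 2 and 3 alone (0.345%). With each library left out it was 0 to 2 (0.00922% to 0.504%). For group size in untreated embryos it was 1 with DESeq2 and the replicate block (*ddit4.L*), where 0.147% of all genes passed. It was 5 with the replicate block in libraries 2 and 3 alone (*epas1.L* and both copies of *ankrd37* and *ddit4*), where 4.98% of all genes passed. For group size averaged over treatments it was 1 with the replicate block in libraries 2 and 3 alone (*higd1a.L*), where 5.11% of all genes passed. The median log2 fold change of the copies for thioridazine in large groups was 0.29 with surrogate variables, 0.27 with homeologs summed, 0.27 with homeologs summed and the replicate block, and 0.18 to 0.37 with each library left out. For thioridazine in small groups it was 0.049 in libraries 2 and 3 alone and -0.157 to 0.062 with each library left out, and for group size in untreated embryos -0.284 to -0.006 with each library left out. The cause of these changes was not tested, except that a fit with fewer libraries has fewer degrees of freedom. The replicate block changed no other call. DESeq2 and limma without the block or surrogate variables, RLE, no filter and the deposited log2 values called 0 copies in each comparison. Low counts, as for *vhl*, *egln1.S*, *vegfa.S*, *mxi1.S* and *bhlhe40* (at most 13.6 CPM), limit what could be detected.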
